A study of Mus musculus with 4 samples.

Results

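The genes described here encode the core of the eIF2 switch of translation. They are the 4 kinases that phosphorylate eIF2 (Eif2ak1, Eif2ak2, Eif2ak3 and Eif2ak4), both regulatory subunits that direct protein phosphatase 1 to eIF2 (Ppp1r15a and Ppp1r15b), the eIF2 subunit genes Eif2s1, Eif2s2 and Eif2s3x, and Eif2b5, a subunit of the exchange factor eIF2B. They were taken by symbol from the count matrices, which held 10 of these genes among 32285. Each symbol matched 1 gene.

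eIF2 carries the initiator methionine tRNA to the ribosome in its GTP-bound form, and eIF2B reloads it with GTP after each round. When a kinase phosphorylates the alpha subunit, eIF2 holds eIF2B in an inactive complex, most translation falls, and transcripts with upstream reading frames such as Atf4 are translated better. The phosphatase regulators reverse this, 1 of them constitutive (Ppp1r15b, CReP) and 1 induced by the response itself (Ppp1r15a, GADD34). The series' title is about stress of the endoplasmic reticulum (ER) in Müller glia, the main glial cell of the retina, and PERK (Eif2ak3) is the kinase that senses such stress.

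Droplet libraries (10x Genomics) were made from dissociated retinas of mice at postnatal day 30, 4 in all, with 1 retina each: NLGF female, NLGF male, WT female and WT male. NLGF mice carry an App knock-in allele with a humanised and mutated amyloid beta sequence, and WT mice are wild type. The labels do not state whether the allele is homozygous. With 2 libraries per genotype, every p-value here rests on at most 4 animals and on a spread estimated over many genes together. The 2 animals of each genotype were 1 female and 1 male, so their spread holds any sex difference too.

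Libraries held between 19128388 and 23473093 unique molecular identifiers (UMIs) over 8060 to 9068 barcodes, and any pair of libraries shared 17 to 34 barcode sequences. Of these barcodes, 31559 were kept as cells. Their 19 clusters were assigned by marker genes to 8 classes whose names (Müller-like, rod-like and the like) rest on those markers alone, with 3 clusters left unnamed. Müller glia numbered 412 and 391 cells in the NLGF female and male, against 259 and 393 in the WT female and male, with 1321966 to 2083483 UMIs per library. Rods numbered 25120 cells over the 4 libraries. Endothelial cells (12 to 28 per library) and microglia (12 to 30) were few, and the microglial sums held only 28230 to 81241 UMIs, so each microglial value below rests on few UMIs. The endothelial class also held pericyte markers. These 8 markers summed to 3864 and 9387 CPM in the NLGF female and male, against 13067 and 7545 CPM in the WT female and male. The 8 endothelial markers summed there to 13520 and 13130 CPM in NLGF and 11287 and 12164 CPM in WT. In Müller glia the Müller marker list summed to 36982 and 37528 CPM in NLGF and 37037 and 36482 CPM in WT. CPM is the UMIs of a gene per 1000000 UMIs of that class in that library, and levels are compared between classes of 1 gene and never between genes.

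The substrate of the kinases is a single serine of eIF2 alpha, encoded by Eif2s1. The stretch of its coding sequence around that serine is shown first because all 4 kinases converge on it. It is codon 52 counted from the start codon, which is residue 51 in the usual numbering without the first methionine, on GENCODE M21 transcript ENSMUST00000071230.7 of chromosome 12, and the capitals mark the serine codon:

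Eif2s1: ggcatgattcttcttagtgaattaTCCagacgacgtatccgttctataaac

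Promoter windows (250 bases before to 50 after the start site, RefSeq, GRCm38.p6) were available for 9 of the 10 genes. None was available for Ppp1r15b, which was not searched. Those of Eif2s2, Ppp1r15a and Eif2ak2 are printed, and of these genes only Eif2s2 was called between genotypes below. They were searched on both strands for the C/EBP-ATF composite element TGATGNAA, the cyclic AMP response element TGACGTCA, the ER stress element (CCAAT and CCACG with 9 bases between them) and the interferon response core (GAAA and GAAA with 2 bases between them). These were held by 3.97%, 1.79%, 0.119% and 3.44% of 32851 windows. Capitals mark the match at -12 in Ppp1r15a (cyclic AMP element) and at 18 in Eif2ak2 (interferon core), counted from the start site:

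Eif2s2 (chr2:154892857-154893156, minus strand): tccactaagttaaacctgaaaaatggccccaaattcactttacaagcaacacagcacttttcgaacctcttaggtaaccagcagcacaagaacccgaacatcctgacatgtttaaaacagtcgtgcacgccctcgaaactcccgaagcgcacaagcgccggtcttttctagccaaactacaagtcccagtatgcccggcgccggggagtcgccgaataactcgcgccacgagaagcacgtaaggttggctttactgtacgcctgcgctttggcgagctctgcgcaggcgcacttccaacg
Ppp1r15a (chr7:45526219-45526518, minus strand): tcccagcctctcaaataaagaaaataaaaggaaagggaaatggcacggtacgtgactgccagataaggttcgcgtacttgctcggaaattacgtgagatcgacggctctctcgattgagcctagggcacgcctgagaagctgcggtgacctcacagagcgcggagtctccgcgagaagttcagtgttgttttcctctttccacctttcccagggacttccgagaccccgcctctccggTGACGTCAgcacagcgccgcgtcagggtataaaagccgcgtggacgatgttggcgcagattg
Eif2ak2 (chr17:78882523-78882822, minus strand): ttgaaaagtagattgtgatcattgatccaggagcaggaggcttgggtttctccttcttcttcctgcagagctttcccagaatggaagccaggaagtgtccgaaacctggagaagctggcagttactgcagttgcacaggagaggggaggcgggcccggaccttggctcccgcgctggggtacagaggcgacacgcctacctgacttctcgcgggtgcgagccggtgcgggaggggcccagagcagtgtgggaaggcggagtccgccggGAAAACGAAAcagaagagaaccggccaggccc

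The Eif2s2 window held none of these 4 motifs. The Ppp1r15a window also held an interferon core at -220, Eif2s1 held one at -212, and Eif2s3x held one on the opposite strand at -4 together with a C/EBP-ATF element on the opposite strand at -96. A match is only a match of letters.

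Across the 8 classes Eif2ak2 had the widest range. Its highest class mean, in endothelial cells, was 64.0 times its rod mean, and its lowest, in rod bipolar cells, rested on 4 UMIs. Leaving out microglia, the highest class mean was 1.64 to 2.51 times the lowest for the other kinases, 3.43 and 2.80 times for Ppp1r15a and Ppp1r15b, and 1.53 to 2.01 times for Eif2s1, Eif2s2, Eif2s3x and Eif2b5. These class levels are descriptions without a test. The plot of levels by class shows all of them.

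**Figure D1:**
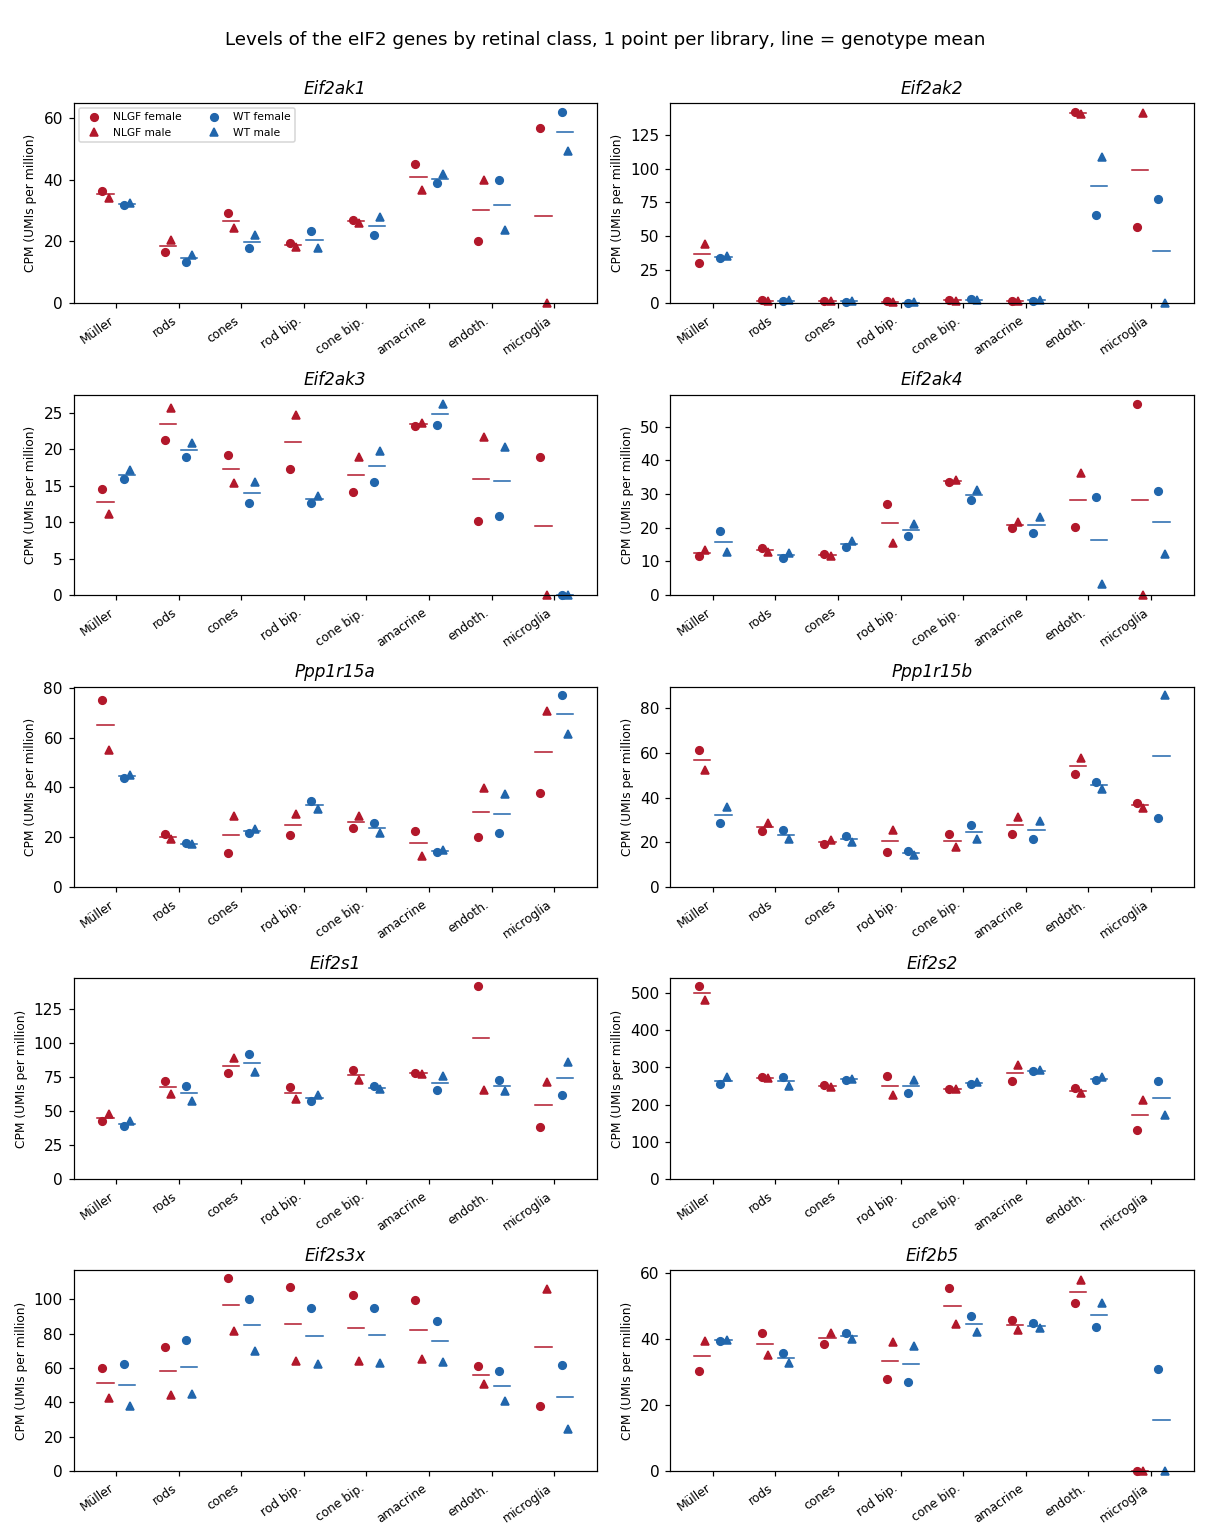
CPM of the 10 eIF2 genes in each retinal class, 1 point per library, NLGF in red to the left of WT in blue, with circles for females, triangles for males and lines for genotype means. Eif2ak2 stays at or under 2.72 CPM in every library of the 5 neuronal classes, and Eif2s2 reaches 520 and 480 CPM in NLGF Müller glia alone.

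Between genotypes, Eif2s2 and Ppp1r15b were higher in NLGF than in WT Müller glia, and no other gene of the 10 passed the edgeR test in any class. That is 2 of 10 in Müller glia, where 0.736% of all genes tested were called higher and 1.24% were called in either direction. The 10 genes were chosen with earlier results of these data known, and no test of the set was run. The median log2 fold change of the 10 genes was 0.08, beside 0.004 over all genes. In rods 0 of 10 were called, with 0 genes at an unadjusted p under 0.05 and 0.00808% of all genes called. Called members were 0 of 9 tested in cones (background 0%), rod bipolar cells (0%), cone bipolar cells (0.0262%) and amacrine cells (0.0535%), 0 of 8 in endothelial cells (0.096%) and 0 of 1 in microglia (0%). Over all kept cells 0 of 10 were called (background 0.0309%), although Ppp1r15a and Ppp1r15b had an unadjusted edgeR p under 0.05 (0.20 ± 0.08 and 0.22 ± 0.08 on the log2 scale, adjusted p = 0.475 and 0.411). Such sums mix classes, and Müller glia were 5.28% ± 0.62 of NLGF cells and 4.00% ± 1.17 of WT cells (SD, n = 2 each).

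Eif2ak1 encodes HRI, the heme-regulated kinase that also relays mitochondrial stress. It averaged 40.6 ± 3.62 CPM in amacrine cells and 33.6 ± 2.10 CPM in Müller glia (SD, n = 4 libraries each), and amacrine and Müller libraries did not overlap. Rods were lowest at 16.5 ± 2.84 CPM. Müller glia had 36.4 and 34.1 CPM in the NLGF female and male, against 31.8 and 32.3 CPM in the WT female and male. NLGF over WT gave a log2 fold change of 0.09 ± 0.19 (SE, n = 2 per genotype, edgeR adjusted p = 0.914). Exons of Eif2ak1 overlap those of Aimp2 and Ankrd61 on the opposite strand, which were counted separately (1183 and 50 UMIs over all kept cells). Strand use in counting was not given in the sources used here. Whether reads of Aimp2 or Ankrd61 entered the Eif2ak1 counts was not tested.

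Eif2ak2 encodes PKR, the kinase activated by double-stranded RNA. Its transcripts were found in glial, vascular and immune cells, with few in the 5 named neuronal classes. It averaged 114 ± 36.1 CPM in endothelial cells, 68.9 ± 58.5 CPM in microglia on 12 UMIs in all, and 35.5 ± 6.19 CPM in Müller glia. The 5 neuronal classes averaged between 0.684 and 2.36 CPM, on 4 to 58 UMIs each, and no library of these classes overlapped a Müller library. No class of horizontal or ganglion cells was named, and an unnamed cluster of 575 cells had markers of both among its top genes. Unnamed cells held 6 and 2 Eif2ak2 UMIs in the NLGF female and male, against 14 and 6 in the WT female and male. Müller glia held 51.7% of all Eif2ak2 UMIs, and endothelial cells another 19.9%. Of the UMIs of all genes these classes held 9.77% and 1.23%. In Müller glia Eif2ak2 had 29.6 and 44.2 CPM in the NLGF female and male, against 33.3 and 34.7 CPM in the WT female and male, and the genotypes overlapped (log2 fold change 0.07 ± 0.21, edgeR adjusted p = 0.944). In endothelial cells it had 142 and 141 CPM in NLGF (14 and 39 UMIs), against 65.4 and 108 CPM in WT (18 and 32 UMIs). Of the 39 UMIs in the NLGF male, 14 came from 1 cell. The genotype difference of 0.68 ± 0.33 on the log2 scale did not pass the test (edgeR adjusted p = 0.968). Pericyte markers in this class also varied between libraries, and their part in these Eif2ak2 values was not tested.

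Eif2ak3 encodes PERK, the ER-resident kinase. It was highest in amacrine cells (24.1 ± 1.41 CPM) and rods (21.7 ± 2.86 CPM), whose libraries overlapped. Rods held 47.7% of its UMIs, beside 42.4% of the UMIs of all genes. Müller glia were at the low end with 14.7 ± 2.63 CPM, overlapping cones and endothelial cells. There it had 14.6 and 11.04 CPM in the NLGF female and male (30 and 23 UMIs), against 15.9 and 17.1 CPM in the WT female and male (21 and 35 UMIs). Both NLGF values lay under both WT values. Of all genes tested in this class, 41.3% had genotypes that did not overlap, counting both directions. For 24.8% both NLGF libraries lay above both WT libraries. The log2 fold change of -0.42 ± 0.29 did not pass the test (edgeR adjusted p = 0.665). In rod bipolar cells Eif2ak3 had 17.2 and 24.7 CPM in NLGF, against 12.7 and 13.6 CPM in WT, a log2 fold change of 0.67 ± 0.30 that also missed the threshold (edgeR adjusted p = 0.785).

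Eif2ak4 encodes GCN2, the sensor of uncharged tRNA. It was highest in cone bipolar cells (31.8 ± 2.67 CPM) and lowest in rods (12.7 ± 1.19 CPM), with amacrine and rod bipolar cells between them at 20.9 ± 2.11 and 20.3 ± 4.98 CPM. Müller glia had 11.7 and 13.4 CPM in the NLGF female and male, against 18.9 and 12.7 CPM in the WT female and male, and the genotypes overlapped (log2 fold change -0.32 ± 0.30, edgeR adjusted p = 0.765). No kinase gene passed the test in any class.

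Ppp1r15b (ENSMUSG00000046062, GRCm38 chromosome 1, 133131143 to 133139783, plus strand) encodes CReP, the constitutive regulator that keeps eIF2 dephosphorylated. NLGF Müller glia had 61.2 and 52.3 CPM in the female and male (126 and 109 UMIs), against 28.7 and 35.7 CPM in the WT female and male (38 and 73 UMIs). Both NLGF libraries lay above both WT libraries, as they did for 24.8% of all genes tested in this class. The log2 fold change was 0.75 ± 0.18 (edgeR adjusted p = 0.0367), and Ppp1r15b ranked 122 of 11145 genes tested by p. The call was lost without the NLGF female (0.63, edgeR adjusted p = 0.258), without the WT female (0.62, 0.111), with counts thinned to the smallest library (0.85, 0.0755) and with DESeq2 (0.76, DESeq2 adjusted p = 0.922). In the other classes its log2 fold change was between -0.30 and 0.45, where tested, with none past the threshold. Leaving out microglia, its highest class means were in endothelial cells (49.9 ± 5.91 CPM) and Müller glia (44.5 ± 14.9 CPM over both genotypes). The neuronal classes lay between 17.8 and 26.6 CPM. WT Müller glia alone averaged 32.2 ± 4.94 CPM, and Müller and amacrine libraries overlapped.

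Ppp1r15a (ENSMUSG00000040435, GRCm38 chromosome 7, 45522916 to 45526268, minus strand) encodes GADD34, the inducible regulator. Its Müller level was 75.3 and 55.2 CPM in the NLGF female and male (155 and 115 UMIs), against 43.9 and 45.0 CPM in the WT female and male (58 and 92 UMIs). Both NLGF libraries lay above both WT libraries, as for 24.8% of all genes tested in this class, with the NLGF female well above the NLGF male. The log2 fold change of 0.51 ± 0.17 did not pass the threshold (edgeR adjusted p = 0.213). Among the alternatives run it passed only without the NLGF male (0.72, edgeR adjusted p = 0.0317), and of the 92 UMIs in the WT male, 16 came from 1 cell (17.4%). By class, Müller glia averaged 54.8 ± 14.6 CPM and did not overlap any neuronal class, which lay between 16.0 and 29.0 CPM. Ppp1r15a exons overlap Tulp2 on the opposite strand, which had 47 UMIs over all kept cells against 1832 for Ppp1r15a.

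Eif2s2 (ENSMUSG00000074656, GRCm38 chromosome 2, 154871410 to 154892935, minus strand) encodes eIF2 beta, the subunit that contacts eIF5 and eIF2B. Among the 10 genes it had the smallest p for NLGF over WT in Müller glia. Its level there was 520 and 480 CPM in the NLGF female and male (1070 and 1001 UMIs), against 254 and 273 CPM in the WT female and male (336 and 558 UMIs). The genotypes were far apart relative to the spread within each, with means of 500.1 ± 27.8 CPM in NLGF and 264 ± 13.4 CPM in WT (SD, n = 2 each). The log2 fold change was 0.88 ± 0.10 (edgeR adjusted p = 1.33e-05), rank 16 of 11145 genes by p. No single cell held more than 2.98% of the Eif2s2 UMIs of its library in this class.

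WT Müller glia were at the level of the other classes for Eif2s2. Rods averaged 268 ± 11.5 CPM, amacrine cells 288 ± 18.6 CPM and cones 259 ± 10.8 CPM (SD, n = 4 libraries each). Outside Müller glia the highest value in any library was 307 CPM, in amacrine cells of the NLGF male. In the other classes the log2 fold change lay between -0.36 and -0.01, and none passed the test. Rods had 275 and 270 CPM in the NLGF female and male, against 275 and 251 CPM in the WT female and male, a log2 fold change of -0.02 ± 0.09 (edgeR adjusted p = 0.977). The difference between the classes, tested as an interaction with library as a block, was 0.90 ± 0.12 on the log2 scale (Müller glia minus rods, edgeR adjusted p = 1.13e-09). Over all genes 0.338% were called by this test and 0.25% had the larger NLGF over WT in Müller glia, and Eif2s2 was the 1 member among them. Ppp1r15b had an interaction of 0.62 ± 0.22 (edgeR adjusted p = 0.34) and Ppp1r15a one of 0.36 ± 0.22 (edgeR adjusted p = 0.707).

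**Figure D2:**
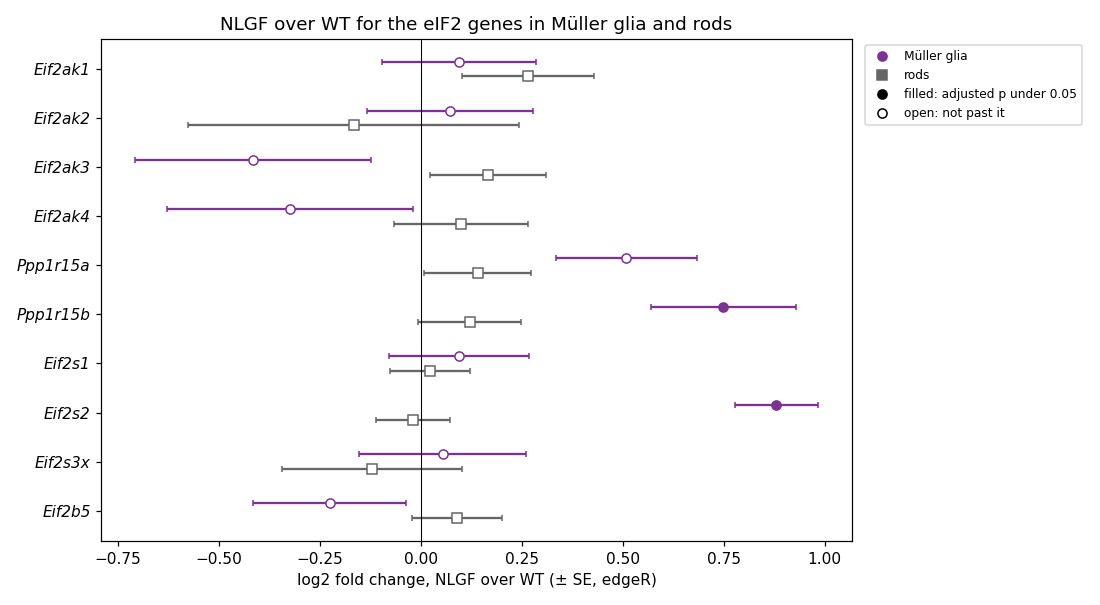
Log2 fold change of NLGF over WT with its standard error for each gene in Müller glia (purple circles) and rods (grey squares), with filled symbols for an edgeR adjusted p under 0.05. Eif2s2 (0.88) and Ppp1r15b (0.75) are filled in Müller glia, and no rod symbol is.

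The Müller class joined a cluster of 733 cells with a median of 9320 UMIs per cell and one of 722 cells with a median of 811. Eif2s2 was above WT in both NLGF libraries of both clusters. In the deeper cluster it had 520 and 480 CPM in NLGF and 245 and 277 CPM in WT (log2 fold change 0.89 ± 0.11, edgeR adjusted p = 7.69e-06). In the shallower cluster it had 515 and 481 CPM in NLGF (114 and 113 UMIs) and 338 and 237 CPM in WT (46 and 53 UMIs). There the log2 fold change of 0.79 ± 0.23 did not pass the threshold (edgeR adjusted p = 0.385). Ppp1r15b in the deeper cluster had a log2 fold change of 0.75 ± 0.18 (edgeR adjusted p = 0.0305). In the shallower cluster it had too few UMIs to be tested. It had 31.6 and 21.3 CPM there in the NLGF female and male (7 and 5 UMIs), against 7.35 and 22.4 CPM in the WT female and male (1 and 5 UMIs).

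Markers of other cells were also present in the Müller sums. Of 14 marker lists, 8 had summed levels in Müller glia that did not overlap between genotypes, 3 of them higher in NLGF. Among single genes tested in this class, 41.3% did not overlap between genotypes. The 9 rod markers summed to 2304 and 2270 CPM in NLGF and 3086 and 2435 CPM in WT. The 8 endothelial markers summed to 2172 and 1928 CPM in NLGF and 1893 and 1835 CPM in WT, and the 8 microglial markers, of which 2 were at 0 in all 4 libraries, to 26.7 and 29.8 CPM in NLGF and 19.7 and 18.1 CPM in WT. Some lists that overlapped between genotypes were uneven between libraries. The 7 astrocyte markers summed to 250 and 359 CPM in the NLGF female and male, against 825 and 217 CPM in the WT female and male. The 7 markers of retinal pigment epithelium summed to 18.9 and 131 CPM in NLGF, against 18.2 and 325 CPM in WT, in the same order. The part of all these markers in the Eif2s2 and Ppp1r15b differences was not tested.

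Eif2s1, which encodes the alpha subunit with the phosphorylated serine, was lowest in Müller glia. It averaged 42.7 ± 3.67 CPM there and 61.2 ± 4.45 CPM in rod bipolar cells, the next class up, and their libraries did not overlap. Cones had 84.2 ± 7.02 CPM. In Müller glia Eif2s1 had 42.3 and 47.5 CPM in the NLGF female and male, against 38.6 and 42.6 CPM in the WT female and male, so the genotypes overlapped (log2 fold change 0.09 ± 0.17, edgeR adjusted p = 0.904).

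Eif2s3x encodes the gamma subunit, which binds GTP and the initiator tRNA, and lies on the X chromosome. Its Müller level was 60.2 and 42.7 CPM in the NLGF female and male, against 62.0 and 37.7 CPM in the WT female and male (log2 fold change 0.05 ± 0.21, edgeR adjusted p = 0.96). The values divided by sex and not by genotype. Eif2b5, the catalytic epsilon subunit of eIF2B, had 30.1 and 39.4 CPM in the NLGF female and male, against 39.3 and 39.6 CPM in the WT female and male (log2 fold change -0.23 ± 0.19, edgeR adjusted p = 0.731). Its class means ran from 32.8 ± 6.46 CPM in rod bipolar cells to 50.7 ± 5.80 CPM in endothelial cells, leaving out microglia, where it had 2 UMIs in all.

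The next lists hold partners and modulators of the eIF2 cycle. Of 14 eIF2 cycle partners (eIF2B subunits, eIF1, eIF5 and related factors), 1 was called in Müller glia, beside 1.24% of all genes tested there. This was Eif5, which encodes the GTPase-activating protein of eIF2, with 248 and 239 CPM in NLGF and 162 and 161 CPM in WT (log2 fold change 0.55 ± 0.09, edgeR adjusted p = 0.00212). The list's median was -0.04. Of 10 kinase modulators 0 were called. Hspa5, the ER chaperone that restrains PERK, had 233 and 240 CPM in NLGF and 281 and 293 CPM in WT, a log2 fold change of -0.32 ± 0.10 that missed the threshold (edgeR adjusted p = 0.126). Nck1, an adaptor that binds PERK, had 93.8 and 84.5 CPM in NLGF and 57.5 and 73.9 CPM in WT (0.38 ± 0.15, adjusted p = 0.305). Of the 3 genes for catalytic subunits of protein phosphatase 1, 0 were called, with -0.14 ± 0.11 for Ppp1ca and 0.11 ± 0.12 for Ppp1cc.

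The last lists hold transcripts with upstream reading frames, targets of ATF4 and CHOP, and interferon response genes. These data count RNA, so eIF2 phosphorylation, kinase activity and translation were not measured. Of 7 transcripts with upstream reading frames 4 rose in Müller glia, where 0.736% of all genes tested were called higher, and the list's median was 1.39. These were Atf5 (2.09 ± 0.11), Ddit3, which encodes CHOP (1.78 ± 0.12), Ifrd1 (1.60 ± 0.11) and Atf4 (1.39 ± 0.11), with edgeR adjusted p from 1.68e-10 to 2.83e-08, and the other 3 did not pass. Of 21 targets of ATF4 and CHOP 20 were tested and 12 rose, beside the same 0.736% of all genes, with a median of 1.10. The smallest p-values were those of the stress protein Nupr1 (1.59 ± 0.11), the transcription factor gene Cebpg (1.45 ± 0.12), Herpud1, a factor in ER-associated degradation (1.13 ± 0.09), Mthfd2, Eif4ebp1 and Chac1. Mthfd2, a mitochondrial folate enzyme, had 48.1 and 46.1 CPM in NLGF and 3.78 and 4.89 CPM in WT, and Eif4ebp1, a repressor of cap-dependent translation, had 55.4 and 51.8 CPM in NLGF and 11.3 and 13.2 CPM in WT. Chac1 had 78 UMIs in NLGF and 0 UMIs in WT, which with 3 UMIs set as the floor over both WT libraries is at least 21.1-fold higher, and the list's median is the same with that bound. Of 14 interferon response genes 13 were tested and 0 were called, with a median of 0.05. Isg15 had 5.83 and 14.9 CPM in NLGF and 22.7 and 16.6 CPM in WT (-0.92 ± 0.35, edgeR adjusted p = 0.275), and Ifit3 had 55.9 and 83.5 CPM in NLGF and 56.0 and 50.4 CPM in WT (0.36 ± 0.18, adjusted p = 0.459). These lists were chosen with earlier results of these data known. In the other 7 classes 0 of the list genes tested were called, and over all kept cells Atf5 and Nupr1 were. Fewer of the 21 targets were tested in those 7 classes than in Müller glia, from 17 in rods to 1 in microglia. Of the 7 upstream reading frame transcripts, 4 were tested in endothelial cells and 0 in microglia. Nothing can be said of genes not tested.

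**Figure D3:**
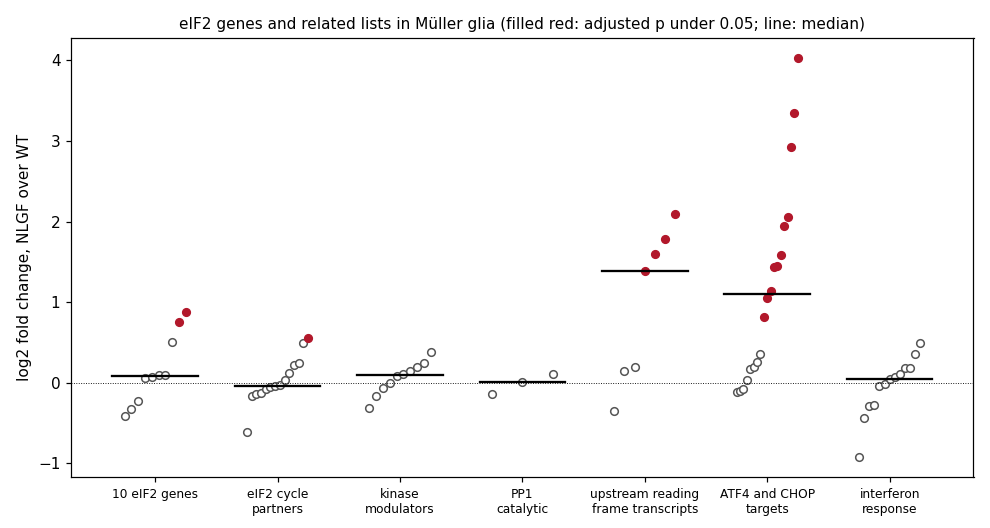
Log2 fold change of NLGF over WT in Müller glia for the 10 eIF2 genes and 6 related lists, 1 point per gene, filled red where the edgeR adjusted p was under 0.05, with a line at each list's median. Chac1, with 0 UMIs in WT, is left out of the points. The median lines lie at 0.08 for the 10 eIF2 genes, 1.39 for the upstream reading frame transcripts and 1.10 for the ATF4 and CHOP targets; the lists were chosen with earlier results of these data known, and differences between lists were not tested.

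Eif2s3x differed between the sexes. It had 82.2 and 82.9 CPM over all kept cells in the NLGF and WT females, against 53.0 and 51.5 CPM in the NLGF and WT males. In rods it had 72.0 and 76.1 CPM in the NLGF and WT females, against 44.4 and 44.7 CPM in the NLGF and WT males, a log2 fold change of female over male of 0.69 ± 0.10 (edgeR adjusted p = 6.17e-10, where 0.444% of all genes were called). In the 7 classes other than microglia both females lay above both males, with log2 fold changes from 0.40 to 0.69. The share of all genes that divide so by sex was not worked out. By genotype, 24.8% of all genes tested in Müller glia had both NLGF libraries above both WT libraries. The call also held in cone bipolar cells (0.64 ± 0.12, edgeR adjusted p = 0.000109, background 0.209%) and cones (0.52 ± 0.14, adjusted p = 0.0495, background 1.11%). In Müller glia (0.60 ± 0.17, edgeR adjusted p = 0.373, background 0.17%) and over all kept cells (0.64 ± 0.06, adjusted p = 0.148, background 0.0371%) it did not. With DESeq2 the calls in rods, cone bipolar cells and cones were lost (DESeq2 adjusted p = 0.327, 1.0 and 1.0), and that over all kept cells passed (DESeq2 adjusted p = 0.0408). No other member was called by sex in any class with edgeR, including rod bipolar (background 0.0752%), amacrine (0.25%) and endothelial cells (0.0576%) and microglia (0.114%).

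Eif2s3y, the Y-linked gene of the gamma subunit, had 0 UMIs in both females in every class. In males it had 183 and 180 CPM in rods and 85.0 and 113 CPM in Müller glia (NLGF and WT). X- and Y-linked UMIs together came to 82.2 and 82.9 CPM in the NLGF and WT females, against 198 and 211 CPM in the NLGF and WT males over all kept cells. The 2 genes are similar in sequence. The NLGF and WT females had 1409 and 1549 Eif2s3x UMIs over all kept cells, beside the 0 UMIs of Eif2s3y. Whether reads of Eif2s3y were counted for Eif2s3x in males was not tested.

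**Figure D4:**
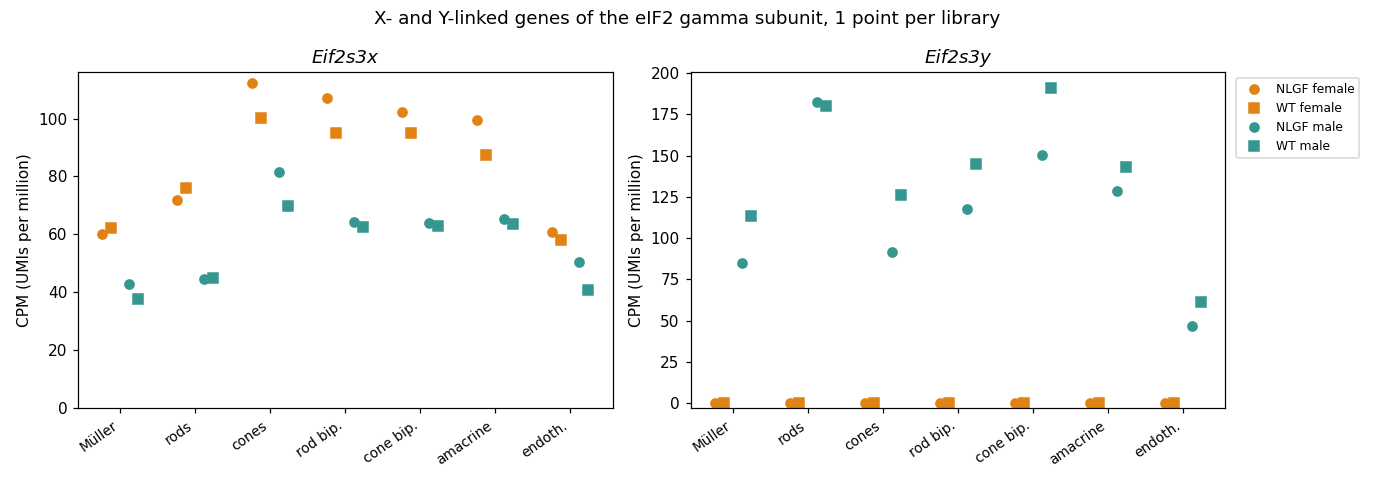
CPM of Eif2s3x (left) and Eif2s3y (right) in 7 classes, 1 point per library, females in orange to the left of males in green, NLGF as circles and WT as squares. For Eif2s3x the females lie above the males in each class, and for Eif2s3y both females are at 0.

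The genes most like each member were taken by Pearson's r of log2 CPM over 31 sums of library and class with at least 50000 UMIs, among 7964 genes. These values describe points that share libraries and classes, so no p is given. Ppp1r15a was most like Fos (0.81), an immediate early gene, followed by Itgb5 (0.79) and Prdx4 (0.78). Eif2s2 was most like Aamdc (0.79), Psph (0.79), which encodes the last enzyme of serine synthesis, and Smim4 (0.77). Eif2ak3 was most like Ttbk2 (0.95), Eif2ak1 like Marcks (0.86), Ppp1r15b like Txndc17 (0.87) and Eif2b5 like Mrs2 (0.98). Eif2ak2, with too few UMIs in most sums for the minimum of 20, was nearest to Rps27l (0.93). The X-linked Eif2s3x was nearest to Zcrb1 (0.77), Eif2s1 to Zc3h18 (0.79) and Eif2ak4 to Arpc1a (0.72).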

How the data were processed

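Single-cell libraries (10x Genomics) of 4 retinas were measured. The authors deposited matrices of raw UMI counts, written by Cell Ranger 6.1.1 per the file headers, while Cell Ranger 3.1.0, STAR and mm10 stand in the submitters' processing notes. The counting of introns was not given in the sources used here.

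Cells needed 300 genes or more and no more than 20% mitochondrial UMIs (33329 of 35191). The automatic Scrublet threshold marked 2 cells, so the top 6% of scores per library were removed (1770 cells). With scanpy 1.11.5, 2000 variable genes, 30 components, 20 neighbours and Leiden resolution 1 gave 19 clusters. The 10 genes and 6 sex-linked genes were left out of the variable genes. A cluster took the class with the highest mean marker z-score, or one with more markers among its top 10 genes by fold. It stayed unnamed on a tie, with no such marker and a z-score under 0.8, or sharing 5 or more top genes with a larger cluster. The removal of sex-linked genes and these rules for unnamed clusters were set after the data were seen.

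UMI counts were summed per library and class and tested with edgeR 4.0.16 (quasi-likelihood, TMM, filterByExpr, genotype only; Benjamini-Hochberg over all genes of the class, threshold 0.05). Each SE is the size of the log2 fold change over the square root of F. Sex was tested beside genotype as female over male, and the class difference as an interaction. CPM values use raw totals. The tests were checked on simulated counts. Positions are from GENCODE M21 (GRCm38; 32158 of 32285 IDs matched). All 10 genes are named. From each list the text names up to 6 called genes by p, or the 2 with the smallest p where none was called. The members and lists were chosen with earlier results of these data known. Same-sex libraries of the 2 genotypes share only their sex, so sex as a block was an alternative.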

Additional observations from a re-analysis of the deposited data

Results flagged for a closer look

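Eif2s2 met a test of the difference between classes. The log2 fold change of NLGF over WT in Müller glia minus that in rods was 0.90 ± 0.12 (edgeR interaction with library as a block, adjusted p = 1.13e-09). Both NLGF libraries lay above both WT libraries in Müller glia, as for 24.8% of all genes tested there, and in rods the genotypes overlapped. Leaving out 1 library at a time gave differences between 0.82 and 1.00, each past the threshold.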

How the results depend on the processing

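Of 1170 values of the 10 genes under alternatives, 1155 kept their side of the threshold, 11 lost a call and 4 gained one. In 98 the sign differed from the main value, in each case with neither value called. In Müller glia, where 2 genes were called, 1 was with DESeq2 and with thinned counts, and 0 with the shallower Müller cluster alone, an alternative chosen after seeing the data; leaving out 1 library gave 1 to 3, the 3 without the NLGF male, where Ppp1r15a was also called. Eif2s2 kept its call under every other Müller alternative (0.82 to 0.94 on the log2 scale). Ppp1r15b was not tested in the shallower cluster, where it had 1 to 7 UMIs per library. In rods leaving out 1 library gave 0 to 1, the 1 being Eif2s3x without the WT male (-0.43, edgeR adjusted p = 0.0169), which leaves a female as the lone WT library. By sex, Eif2s3x was called over all kept cells with DESeq2 and with no filter on low counts (1 against 0). Its call was lost (0 against 1) in cone bipolar cells with DESeq2, in rods with DESeq2 and no filter, and in cones with DESeq2, no filter and RLE factors. The cause was not tested.

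With sex as a replicate block, 2 genes were called in Müller glia, as without it, with Eif2s2 at 0.88 (edgeR adjusted p = 1.26e-07) and Ppp1r15b at 0.75 (adjusted p = 0.0303), and the block changed no call of the 10 genes in other classes. Counts over all genes moved more. In Müller glia 138 were called, against 207 with the block, 43 with DESeq2, 74 with thinned counts, 263 with no filter, 255 with doublets kept, 1 in the shallower cluster and 129 to 285 without 1 library. In rods 1 was called, with a range of 1 to 984, and by the class interaction 46, with a range of 24 to 192. Ranges elsewhere were 1 to 67 in amacrine cells (6 called), 0 to 48 in cone bipolar cells (3), 0 to 81 in cones (0), 0 to 42 in rod bipolar cells (0), 1 to 40 in endothelial cells (5), 0 to 86 in microglia (0) and 0 to 256 over all kept cells (5). By sex they were 7 to 55 in rods (55), 15 to 118 in cones (104) and 4 to 28 in cone bipolar cells (24). The sex model without 1 library leaves 0 residual degrees of freedom, and microglia had too few cells under the 10% mitochondrial limit, so neither was run. A library left out leaves a lone sample, assumed to vary like the other group. Low UMI totals limit Eif2ak2 in the named neuronal classes and every gene in microglia.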
